A study of Mus musculus with 20 samples.

Results

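The genes described here carry fast and slow inhibition in the brain: 12 subunits of the GABA-A receptor, 2 of the GABA-B receptor, 4 of the glycine receptor, 3 enzymes that make or break down GABA, 3 transporters, 2 postsynaptic organisers and 2 chloride cotransporters. They were taken by gene symbol, 28 of the 22048 genes in each of 2 count tables, and all 28 were present in both. RNA-seq was run on the arcuate nucleus, the hypothalamic region that holds the AgRP and POMC feeding neurons, cut whole from frozen brain sections by laser capture. The mice were male C57BL6/J, given as 10 weeks old, and every mouse drank 1% ethanol, which was the vehicle. Cort mice received corticosterone, the main glucocorticoid of rodents, at 75 µg/ml in that vehicle, for 2 days or for 4 weeks. The 4 week mice, vehicle and Cort alike, were also fasted and then refed before collection, and the datasets were prepared and sequenced apart. Each of the 4 groups had 5 samples.

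In each dataset the study left out 2 vehicle samples and 1 Cort sample that stood apart in principal component plots. The comparisons below rest on the 7 samples that remained, 3 vehicle and 4 Cort, and values with all 10 are given beside those the account rests on. Totals over the 7 samples ran from 2487063 to 5748223 counts at 2 days and from 1837715 to 5196364 at 4 weeks, so 3 counts corresponded to 0.522 to 1.21 CPM (counts scaled to the size of the library) and to 0.577 to 1.63 CPM. Samples are named by their column label, C01 to C10, and the same label in the 2 datasets does not mean the same mouse. All 12 neuronal markers were tested in both datasets, with summed levels between 6281 and 8244 CPM in the 7 samples of each. These are general markers of neurons and do not single out the arcuate nucleus.

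GABA-A receptors are chloride channels built of several subunits, and the mix of alpha, beta, gamma and rarer subunits sets where the receptor sits and which drugs it binds. GABA-B receptors act more slowly through G proteins. Glycine receptors are chloride channels related to the GABA-A receptor. In the arcuate nucleus GABA is released by AgRP neurons among others, and GABA-A receptors that hold the epsilon and theta subunits are known mainly from the hypothalamus and a few other deep brain regions.

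In the 3 vehicle samples of the fit, the rare subunits Gabre (epsilon) and Gabrq (theta) had the highest mean level per length of the 12 GABA-A subunits in both datasets. At 2 days Gabre was at 74.7 ± 22.7 CPM per kb of exon (SD, n = 3) and Gabrq at 72.1 ± 10.8, and their ranges overlapped. Gabra5 followed at 45.7 ± 3.88 and Gabra3 at 41.7 ± 4.99, again with overlapping ranges that did not reach those of Gabrq. Below them came Gabrg1 at 32.1 ± 0.922 and Gabrb1 at 28.5 ± 1.53, each apart from its neighbours in the order. The place of Gabrb1 depends on its exon length, 13.84 kb, the longest of the 12. Before division by length its 2 day vehicle mean was the highest, at 394 CPM, against 386 for Gabrq and 354 for Gabre, with overlapping ranges. Gabrg3 (12.7 ± 1.13), Gabra2 (12.6 ± 4.79), Gabrb2 (7.26 ± 2.03) and Gabra4 (4.43 ± 1.04) overlapped each with the next. In the 4 week vehicle mice the first 2 places were Gabrq at 68.9 ± 11.3 and Gabre at 68.0 ± 16.4, followed by Gabra5 at 46.0 ± 6.74, whose range overlapped that of Gabre. This order did not hold in 3 of the 4 vehicle samples left out. Gabra5 was above both in 2 day samples C07 (62.3 CPM per kb, against 39.4 for Gabre and 33.8 for Gabrq) and C09 (61.9, against 43.7 and 46.1), and in 4 week sample C01 (75.0, against 56.2 and 26.1). Gabra6, whose product is known from cerebellar granule cells, had no count in the 10 samples of the 2 day dataset. Gabrd, the subunit of many receptors outside synapses, reached at most 6 counts in a 2 day sample and 8 in a 4 week sample. Over all 28 genes Gad2, the smaller of the enzymes that make GABA, stood first per length in both datasets, at 215 ± 20.9 and 133 ± 5.51 CPM per kb, followed by the astrocyte GABA transporter Slc6a11 at 187 ± 4.41 and 126 ± 5.78.

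**Figure D1:**
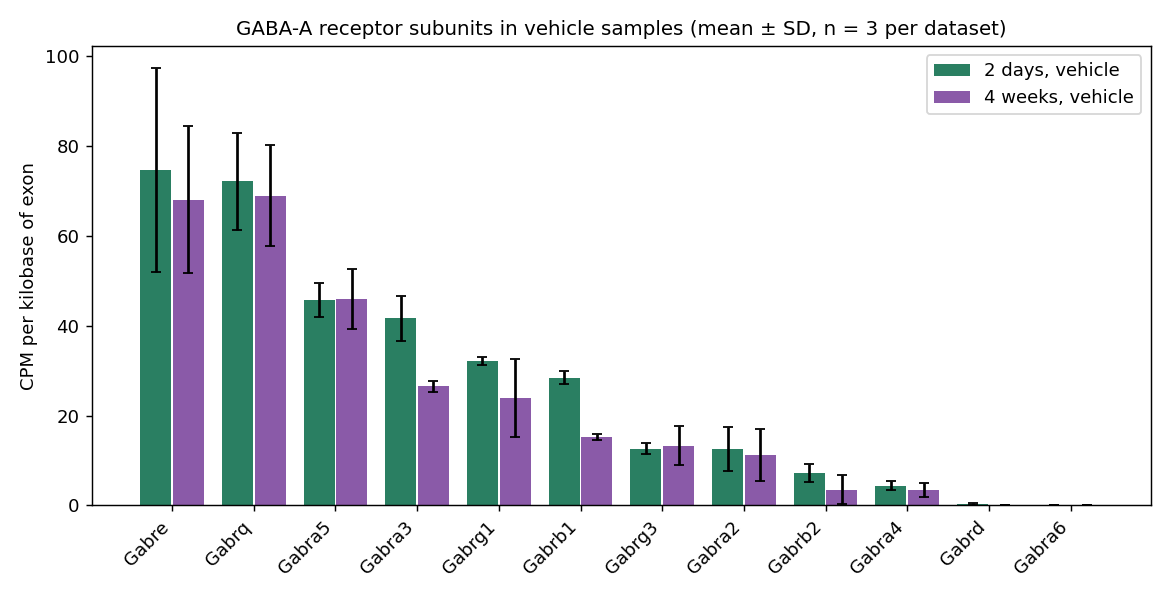
Levels of the 12 listed GABA-A receptor subunits in vehicle samples, in CPM per kilobase of exon, ordered by the 2 day mean; bars are means and error bars are SD over 3 samples. Gabre and Gabrq were the tallest bars in both datasets, between 68.0 and 74.7, and Gabrd and Gabra6 were at or near 0.

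After 2 days of Cort, 4 of the 25 genes that passed the filter on low counts were lower at P below 0.01 by edgeR's quasi-likelihood test: Gabra3, Gabre, Gabrq and Gabbr1. None was higher at that threshold. Over all 12309 genes tested, 1.49% passed that threshold and 0.658% passed it in the lower direction. Among the 25, 20 had a fitted difference below 0, against 47.9% of all genes, and their median log2 fold change was -0.26, against 0.02 over all genes. None of the 25 passed Padj below 0.1 in edgeR, a threshold met by 0.065% of all genes. At P below 0.05 there were 7, all lower, where 5.97% of all genes passed. DESeq2 on the same samples called the same 4 genes at P below 0.01 (1.9% of all genes) and placed 2 of them, Gabra3 and Gabrq, under Padj of 0.1, where 0.384% of all genes fell. The 3 genes that could not be tested were Gabra6, Gabrd and Slc6a13.

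With all 10 samples 2 genes passed P below 0.01, Gabbr1 and the transporter Slc6a11, where 1.11% of all genes did, and Gabra3, Gabre and Gabrq did not. Leaving out vehicle sample C05 reduced the 4 genes to 1, Gabra3, in a fit for which the share of all genes was not counted. The 2 groups were apart in 5 of the 25 genes over the 7 samples, namely the 4 above and Gad1, where 6.63% of all genes were. For each of these 5 an exact 2-sided permutation test gave p = 0.0571, the smallest that 3 against 4 samples allow. Groups without overlap always give that value, so it adds nothing to the lack of overlap. Over all 10 samples no member was free of overlap, where 0.801% of all genes were.

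Gabra3 encodes an alpha subunit that is common on monoaminergic and hypothalamic neurons. Its level at 2 days was 184, 145.5 and 161 CPM in vehicle samples C02, C04 and C05 and 107, 107, 97.2 and 97.05 CPM in Cort samples C01, C03, C06 and C10. All 4 Cort samples lay below all 3 vehicle samples. Left-out vehicle sample C07 was at 63.4 CPM, under every Cort sample, and left-out C09 and C08 were at 160.3 CPM (vehicle) and 90.5 CPM (Cort). Over the 7 samples Gabra3 fell by 37.2%, a log2 fold change of -0.67 (SE 0.18), past P below 0.01 but with an edgeR adjusted p of 0.443. DESeq2 gave an adjusted p of 0.0661. It was at -0.51 with all 10 samples (exact permutation p = 0.190), and without vehicle sample C02 it did not pass P below 0.01.

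Gabre encodes the epsilon subunit, which makes receptors that can open without GABA and respond little to benzodiazepines. Its 2 day levels were 259.7, 330.2 and 471 CPM in vehicle samples C02, C04 and C05, and 254, 195, 237 and 219.6 CPM in Cort samples C01, C03, C06 and C10. The highest Cort sample lay just under the lowest vehicle sample. Of the left-out vehicle samples, C07 at 186.5 CPM lay below every Cort sample and C09 at 207 CPM among them, with left-out Cort sample C08 at 201 CPM. Its log2 fold change was -0.63 (SE 0.17, edgeR adjusted p = 0.443, DESeq2 adjusted p = 0.173). Without vehicle sample C05 it was -0.37, and with all 10 samples -0.38 (exact permutation p = 0.270), both short of P below 0.01.

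Gabrq encodes the theta subunit, which is often expressed together with the epsilon subunit. At 2 days it was at 319.7, 415 and 423 CPM in vehicle samples C02, C04 and C05 and at 276, 244, 244 and 289 CPM in Cort samples C01, C03, C06 and C10. The groups of the 7 samples were apart, while left-out vehicle samples C07 (181 CPM) and C09 (247 CPM) were low, and left-out Cort sample C08 stood at 264 CPM. Among the 7 samples the log2 fold change was -0.54 (SE 0.14, edgeR adjusted p = 0.443). The DESeq2 adjusted p was 0.0962. The value was -0.26 with all 10 samples (exact permutation p = 0.405), and without vehicle sample C04 or C05 it did not pass P below 0.01.

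After 4 weeks Gabrq was again lower in each of the 4 Cort samples, at 249, 278, 160.3 and 260.1 CPM in C07, C08, C09 and C10, against 409.9, 397 and 299.6 CPM in vehicle samples C02, C03 and C04. The left-out vehicle samples took both extremes of the 10, with C01 at 139.5 CPM and C05 at 489.7 CPM, and left-out Cort sample C06 was at 273 CPM. Its log2 fold change was -0.65 (SE 0.28, edgeR adjusted p = 0.990), past P below 0.05 but not 0.01. It did not pass 0.05 with all 10 samples (-0.52, exact permutation p = 0.302), nor without vehicle sample C02 (-0.55) or C03 (-0.59) or Cort sample C09 (-0.51). Gabra3 and Gabre gave other values at 4 weeks. Gabra3 was at 106, 98.9 and 108 CPM in the vehicle samples and at 102, 100, 132 and 152.5 CPM in the Cort samples, with a log2 fold change of 0.21 (SE 0.37, edgeR adjusted p = 0.990) that turned to -0.29 with all 10 samples. Gabre was at 385.5, 345 and 235.5 CPM in the vehicle samples and at 199, 467, 152 and 413 CPM in the Cort samples, and its log2 fold change was -0.08 (SE 0.36, edgeR adjusted p = 0.995). For both of these genes the Cort and vehicle samples overlapped.

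**Figure D2:**
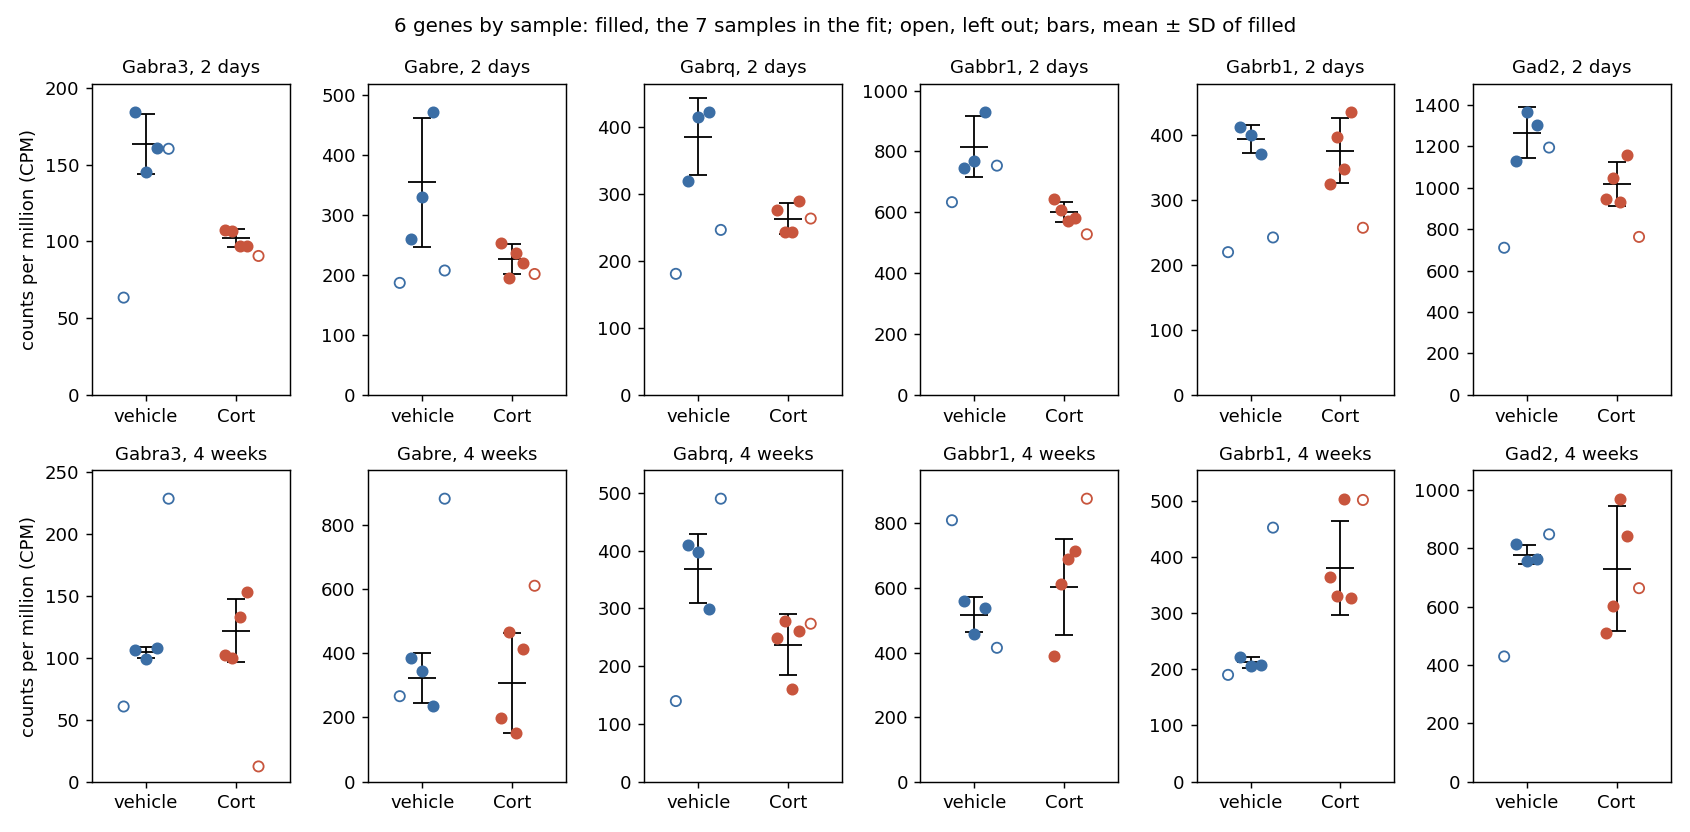
CPM of Gabra3, Gabre, Gabrq, Gabbr1, Gabrb1 and Gad2 in each sample, vehicle in blue and Cort in red, with 2 days above and 4 weeks below. Filled points are the 7 samples in the fit with their mean ± SD, and open points are the 3 samples left out; at 2 days the filled groups of Gabra3, Gabre, Gabrq and Gabbr1 do not overlap, and at least 1 open vehicle point of each lies among or below the Cort points.

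Gabre, Gabra3 and Gabrq are neighbours. On the X chromosome of GRCm38 they span 586.6 kb, from Gabre (chrX:72255999-72274803, minus strand) and Gabra3 (chrX:72432681-72656848, minus strand) to Gabrq (chrX:72825178-72842602, plus strand). No exon base of the 3 overlaps another annotated gene. The other genes around them were compared to show whether the region as a whole shifted. Of 24 other genes tested at 2 days within 1 Mb of the cluster, 14 had fitted values below 0 (47.9% of all genes did) with a median log2 fold change of -0.11, and 1, Prrg3, passed P below 0.05 in edgeR but not 0.01, where 5.97% of all genes passed 0.05. At 4 weeks 8 of 22 were below 0 (48.1% of all genes), the median was 0.12, and 1, Gpr50, passed P below 0.01 (1.03% of all genes). These 2 genes are named because the counts were 1, after their values were seen.

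**Figure D3:**
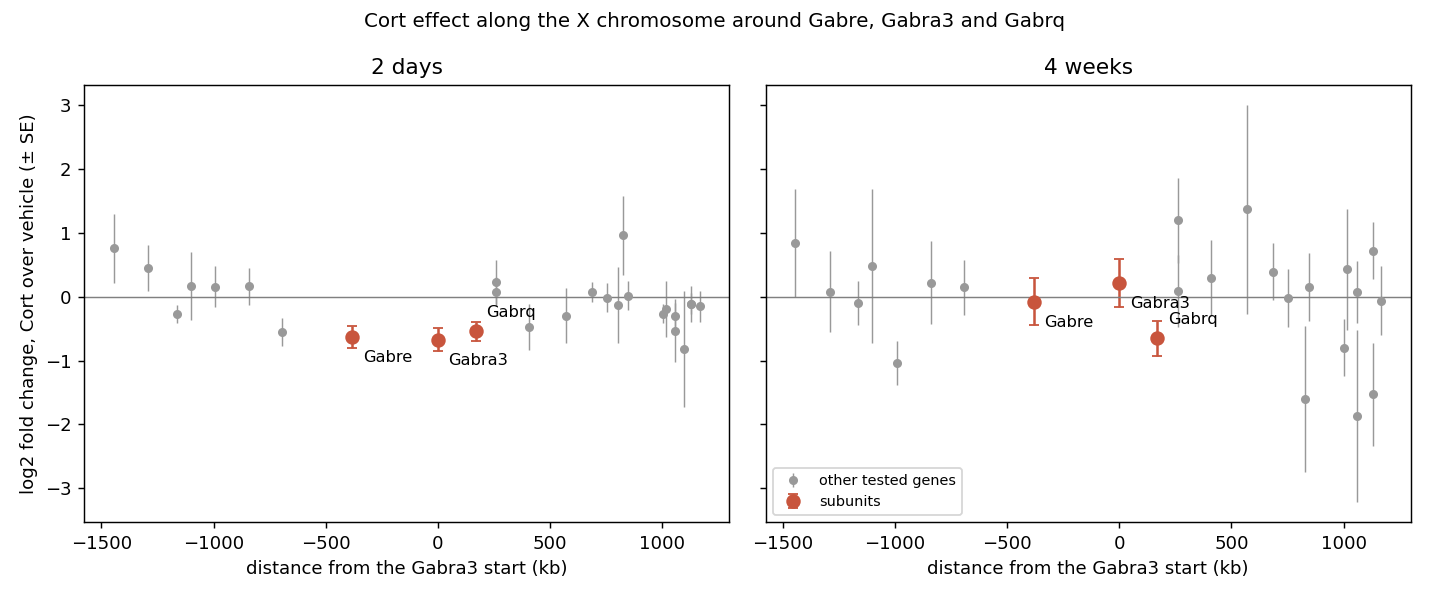
The log2 fold change (± SE) of each tested gene within 1 Mb of the X chromosome cluster against the distance of its start from the Gabra3 start, in kb, for 2 days and 4 weeks; subunits are red and other genes grey. At 2 days the 3 subunits lie between -0.67 and -0.54, and the 24 other genes scatter around a median of -0.11.

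The stretches in front of these 3 genes and of Gabbr1 are shown because these were the 4 genes past P below 0.01 at 2 days. They come from RefSeq windows on GRCm38.p6, cut so that no annotated exon base is included, and are written 5′ to 3′ on the strand of the gene with each CpG dinucleotide in capitals. They are chrX:72656920-72657169 (minus strand) for Gabra3, chrX:72274804-72274971 (minus strand) for Gabre, chrX:72824928-72825177 (plus strand) for Gabrq and chr17:37045716-37045965 (plus strand) for Gabbr1.
Gabra3: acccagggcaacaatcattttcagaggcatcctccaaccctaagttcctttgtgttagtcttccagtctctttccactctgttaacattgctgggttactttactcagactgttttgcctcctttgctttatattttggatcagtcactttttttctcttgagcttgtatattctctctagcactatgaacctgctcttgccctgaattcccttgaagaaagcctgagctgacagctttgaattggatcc
Gabre: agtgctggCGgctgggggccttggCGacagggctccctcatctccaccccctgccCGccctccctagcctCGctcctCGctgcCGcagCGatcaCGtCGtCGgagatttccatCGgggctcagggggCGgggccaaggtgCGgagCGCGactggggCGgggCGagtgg
Gabrq: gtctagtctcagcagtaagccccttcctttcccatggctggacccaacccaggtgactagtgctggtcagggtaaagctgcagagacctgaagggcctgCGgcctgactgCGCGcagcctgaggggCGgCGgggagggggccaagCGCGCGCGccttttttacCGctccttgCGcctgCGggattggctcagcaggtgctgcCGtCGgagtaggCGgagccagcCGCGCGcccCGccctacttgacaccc
Gabbr1: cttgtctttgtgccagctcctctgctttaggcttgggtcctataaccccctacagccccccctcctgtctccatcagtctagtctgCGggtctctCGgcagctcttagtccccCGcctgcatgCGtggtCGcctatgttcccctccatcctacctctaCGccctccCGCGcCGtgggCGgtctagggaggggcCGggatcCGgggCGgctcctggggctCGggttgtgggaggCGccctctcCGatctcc

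The Gabra3 stretch of 250 bases held 0 CpG, while Gabre held 17 in 168 bases, Gabrq 19 in 250 and Gabbr1 16 in 250. None of the 4 held the letters of a full glucocorticoid response element (AGAACA, 3 bases of any kind, then TGTTCT) on either strand. Of all 32851 mouse windows of 300 bases, 0.00913% held it. Its half-site, AGAACA, which lies inside the full element, was also not in these 4 stretches. It was present in windows of 4 of the 24 members that had one (Gabrb2, Gabrg1, Slc6a13 and Nlgn2) and in 19.0% of all windows. No match says only that these letters were not in these stretches.

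Gabbr1, the subunit of the GABA-B receptor that binds GABA, was the one gene outside the GABA-A receptor that passed P below 0.01 at 2 days. Vehicle samples C02, C04 and C05 were at 746, 769 and 930.0 CPM and Cort samples C01, C03, C06 and C10 at 642, 609, 571 and 583 CPM. The groups were apart over the 7 samples, and of the left-out samples vehicle C07 (633.5 CPM) fell among the Cort samples, vehicle C09 (753.5 CPM) among the vehicle samples, and Cort C08 (528 CPM) was the lowest of the 10. Gabbr1 fell by 25.7% over the 7 samples, a log2 fold change of -0.43 (SE 0.12, edgeR adjusted p = 0.443, DESeq2 adjusted p = 0.124). It stayed under P of 0.01 with all 10 samples, at -0.38 (adjusted p = 0.848), and an exact 2-sided permutation test over the 10 samples gave p = 0.0159, where 0.00794 is the smallest possible. Without vehicle sample C05 it was -0.32 and did not pass. Its partner Gabbr2, which couples to the G protein, was at 215 to 245 CPM in the vehicle samples and 163 to 252 CPM in the Cort samples (log2 fold change -0.18, SE 0.16, edgeR adjusted p = 0.933). After 4 weeks Gabbr1 was at 558, 456 and 536.5 CPM in the vehicle samples and at 389.5, 612, 691 and 715 CPM in the Cort samples, which overlapped (log2 fold change 0.21, SE 0.24, edgeR adjusted p = 0.990). Gabbr2 at 4 weeks had a log2 fold change of 0.22 (SE 0.35, edgeR adjusted p = 0.990).

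The other 7 GABA-A subunits tested did not pass P below 0.01 at 2 days. Their log2 fold changes ran from -0.36 for Gabra2 to 0.36 for Gabra5, with Gabrg3 at -0.35, Gabrg1 at -0.22, Gabrb2 at -0.11, Gabrb1 at -0.06 and Gabra4 at 0.18. Gabra5, an alpha subunit found mostly outside synapses, was one of the 2 with a fitted value above 0 (SE 0.19, edgeR adjusted p = 0.865). The summed level of Gabra3, Gabre and Gabrq was 764 to 1055 CPM in the vehicle samples and 546 to 637 CPM in the Cort samples, while the other 9 listed subunits summed to 1044 to 1142 CPM and 919 to 1117 CPM. The first sum separated the groups of the 7 samples and the second did not. Over all 10 samples the first sum also overlapped, since the left-out vehicle samples reached down to 431 CPM. At 4 weeks the reverse held over the 7 samples. There the first sum overlapped, at 643 to 901 CPM in vehicle and 445 to 845 CPM in Cort samples. The second was apart, at 779 to 883 CPM and 969 to 1316 CPM, but overlapped over all 10 samples. These sums follow from the genes chosen and carry no test.

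After 4 weeks, 1 of the 25 genes tested passed P below 0.01: Gabrb1, which encodes a beta subunit, was higher with Cort. Of all 11211 genes tested 1.03% passed, and 0.633% passed in the higher direction. None of the 25 passed Padj below 0.1 in edgeR or in DESeq2, where 0.0446% and 0.609% of all genes did, and 4 passed P below 0.05 in each tool (4.91% of all genes in edgeR). DESeq2 placed 2, Gabrb1 and Glra1, under P of 0.01 (2.18% of all genes). With all 10 samples edgeR placed none there (0.971% of all genes) and 3 under 0.05. The shares of all genes under 0.05 were not counted for DESeq2 or for all 10 samples. Of the 25, 12 had a fitted value below 0 and 13 above, where 48.1% of all genes were below 0, and the median log2 fold change was 0.21, against 0.04 over all genes. The groups were apart in 6 of the 25 over the 7 samples, where 6.53% of all genes were, and in none over all 10, where 0.942% were.

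Gabrb1 at 4 weeks was at 222.5, 206 and 207 CPM in vehicle samples C02, C03 and C04 and at 364, 329.5, 503.5 and 326.5 CPM in Cort samples C07, C08, C09 and C10. Every Cort sample was above every vehicle sample. Left-out vehicle samples C01 and C05 were at 190.0 and 452 CPM, and the second of these lay among the Cort samples, as did left-out Cort sample C06 at 501 CPM. Gabrb1 was 78.2% higher with Cort, a log2 fold change of 0.83 (SE 0.27, edgeR adjusted p = 0.918, DESeq2 adjusted p = 0.200). It was at 0.65 with all 10 samples, short of P below 0.01 (exact permutation p = 0.0317). Leaving out vehicle sample C02, C03 or C04 or Cort sample C09 also left it short of that threshold, at 0.67 to 0.89. At 2 days the same gene was at 412, 399 and 370.5 CPM in the vehicle samples and 324.5 to 435 CPM in the Cort samples, with a log2 fold change of -0.06 (SE 0.14, edgeR adjusted p = 0.973). The difference between its 2 Cort effects, 4 weeks minus 2 days, was 0.90 on the log2 scale (SE 0.27, edgeR adjusted p = 0.714).

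That interaction was the one member past P below 0.01 among the 25 tested, where 1.35% of 12777 genes passed, and none of the 25 passed Padj below 0.1 (0.0157% of all genes did). At P below 0.05 there were 6: Gabrb1, Gabra3, Gabrg1, Gabbr1, Glra1 and Slc12a5, where 6.49% of all genes passed. DESeq2 gave 3 below 0.01 (Gabrb1, Gabra3 and Glra1; 2.46% of all genes) and 0 under Padj of 0.1. With all 20 samples no member passed P below 0.01 (1.36% of all genes did), and Gabrb1 was then at 0.55. There 3 passed 0.05, for which the share of all genes was not counted. For Gabrq, whose fitted value was below 0 in both datasets, the difference of effects was -0.10 (SE 0.30, edgeR adjusted p = 0.987). The length of treatment cannot be told apart here from fasting and from the preparation and sequencing of the datasets.

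Gabrb1 lies on chromosome 5 beside Gabra4, Gabra2 and Gabrg1, in a span of 1398 kb. These 4 did not share a direction at 4 weeks. Gabrg1, a gamma subunit found in some hypothalamic neurons and in glia, had a log2 fold change of 0.69 (SE 0.33), Gabra2 had 0.32 (SE 0.48) and Gabra4 had -0.74 (SE 1.05), and with all 10 samples Gabrg1 was at 0.24. Exons of Gabrb1 and Gabra4 overlap on opposite strands over 46 bases, 0.332% of the exon bases of Gabrb1. The other subunits at 4 weeks were Gabrb2 at 0.78 (SE 0.97), Gabrg3 at 0.28 (SE 0.38) and Gabra5 at -0.01 (SE 0.35), none with P below 0.05. With all 10 samples Gabrb2 was at 0.03, Gabrg3 at 0.42 and Gabra5 at 0.47.

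**Figure D4:**
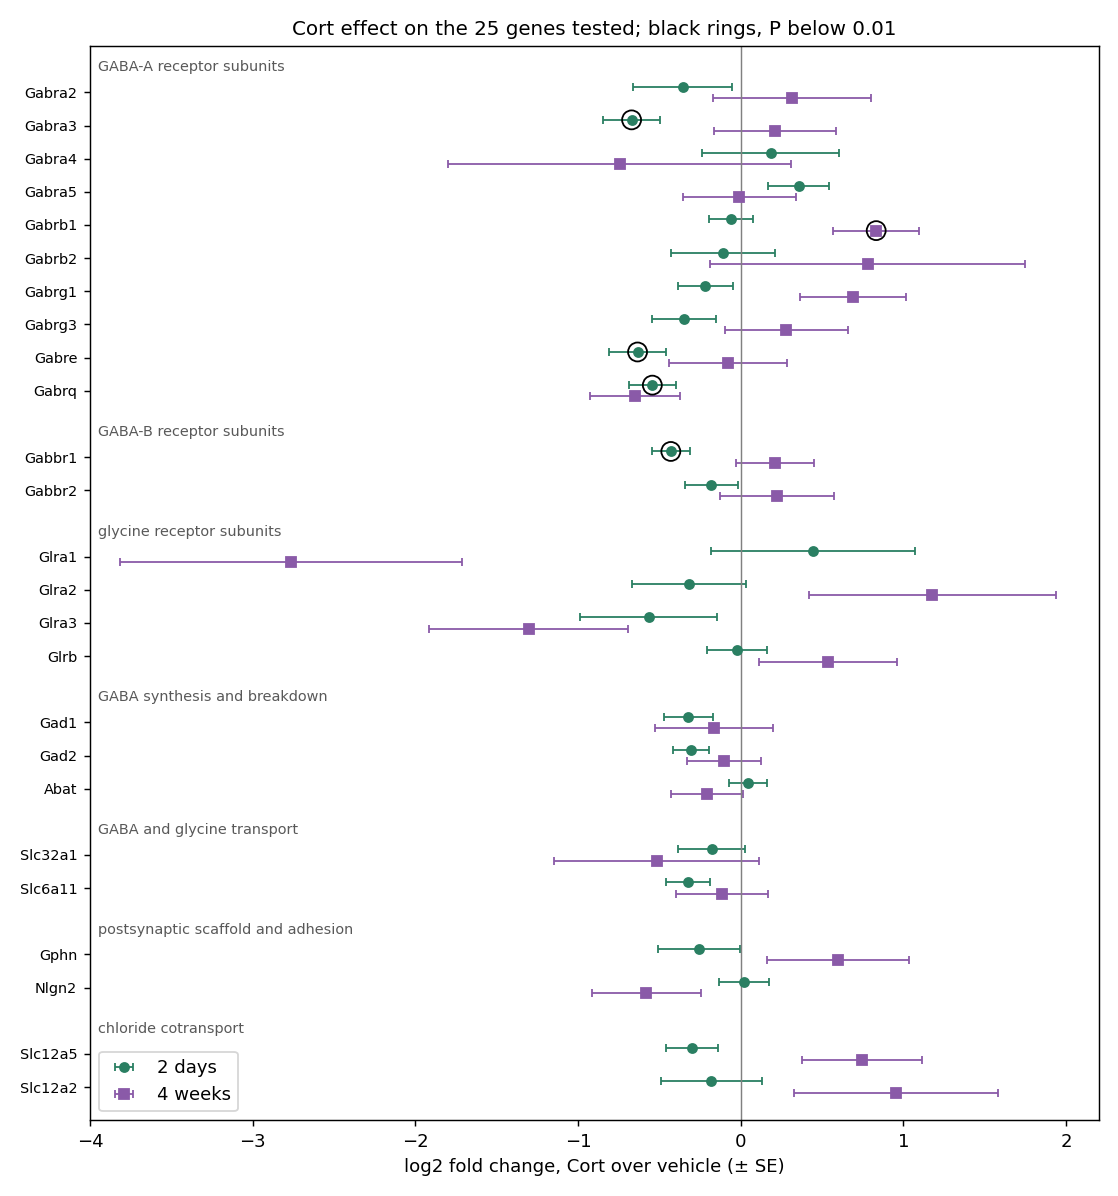
The log2 fold change of Cort over vehicle (± SE, edgeR, 3 vehicle and 4 Cort samples) for the 25 genes tested, grouped by class, with 2 days as green circles and 4 weeks as purple squares. Black rings mark P below 0.01, which Gabra3, Gabre, Gabrq and Gabbr1 met at 2 days, all below 0, and Gabrb1 at 4 weeks, above 0; the 4 week bars are wider, with a median SE of 0.37 against 0.18.

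The glycine receptor genes showed large values with large errors at 4 weeks. Glra1, the alpha subunit of the adult spinal receptor, was at 23.3, 53.1 and 21.05 CPM in the vehicle samples and at 2.89, 4.76, 10.8 and 0.922 CPM in the Cort samples. The last of these was 3 counts, and the groups were apart. Left-out vehicle samples C01 and C05, however, held 1 and 0 counts, and left-out Cort sample C06 was at 20.46 CPM, just under the lowest of the 3 vehicle samples. Its log2 fold change was -2.77 (SE 1.05, edgeR adjusted p = 0.990, DESeq2 adjusted p = 0.214), and -1.31 with all 10 (exact permutation p = 0.706). Reads of Glra1 cannot be told from those of an opposite-strand gene over 5.84% of its exon bases if counting ignored strand. Glra3 was at 66.6, 55.9 and 84.2 CPM in the vehicle samples and at 34.7, 18.6, 16.5 and 42.4 CPM in the Cort samples (log2 fold change -1.30, SE 0.61, edgeR adjusted p = 0.990). Left-out vehicle sample C05, at 15.1 CPM, was the lowest of the 10. Glra2, the alpha subunit prominent in the immature brain, had a log2 fold change of 1.18 (SE 0.76), with 1 Cort sample, C07, at 323 CPM. Glrb, the beta subunit that anchors the receptor at synapses, had 0.54 (SE 0.42). At 2 days none of the 4 had P below 0.05, and their log2 fold changes were 0.45 for Glra1, -0.32 for Glra2, -0.56 for Glra3 and -0.02 for Glrb.

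Gad1 and Gad2 encode both forms of glutamate decarboxylase, which makes GABA. At 2 days Gad2 was at 1128, 1366 and 1303 CPM in vehicle samples C02, C04 and C05 and at 945, 1045, 930.4 and 1158 CPM in Cort samples C01, C03, C06 and C10. One Cort sample, C10, was above the lowest vehicle sample. Its log2 fold change was -0.30 (SE 0.11, edgeR adjusted p = 0.690), past P below 0.05 but not 0.01. The value passed 0.01 without vehicle sample C02 (-0.38) or Cort sample C10 (-0.37) and with upper quartile scaling (-0.32). It did not pass 0.05 without vehicle sample C04 (-0.25) or over all 10 samples (-0.23, exact permutation p = 0.317). Gad1 was at 231, 229 and 279.8 CPM in the vehicle samples and at 209, 201, 189 and 186 CPM in the Cort samples, which did not overlap (log2 fold change -0.32, SE 0.15, edgeR adjusted p = 0.823). The left-out vehicle samples C07 and C09 were the lowest of the 10 for Gad1, at 163 and 145 CPM. Its value with all 10 was -0.11 (exact permutation p = 0.690).

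After 4 weeks Gad2 was at 816, 757 and 764 CPM in the vehicle samples and at 508.5, 601, 971 and 843.5 CPM in the Cort samples, whose spread took in the vehicle range. Its log2 fold change was -0.10 (SE 0.23, edgeR adjusted p = 0.992). Gad1 was at 133, 150.4 and 145 CPM against 83.1, 109, 167 and 154 CPM (log2 fold change -0.16, SE 0.36). Abat, the transaminase that breaks GABA down, had a log2 fold change of 0.05 (SE 0.12) at 2 days and -0.21 (SE 0.22) at 4 weeks, and both turned with all 10 samples, to -0.12 and 0.45.

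Slc32a1 encodes the vesicular transporter that loads both GABA and glycine into synaptic vesicles. At 2 days it was at 138, 103 and 94.3 CPM in the vehicle samples and at 111, 81.8, 95.2 and 104 CPM in the Cort samples, which overlapped (log2 fold change -0.18, SE 0.21, edgeR adjusted p = 0.948). With all 10 samples, where left-out vehicle sample C09 stood at 217 CPM, the value was -0.45 (exact permutation p = 0.143), and without vehicle sample C02 it was -0.00098. At 4 weeks it was at 61.5, 96.9 and 23.7 CPM in the vehicle samples and 63.5, 28.8, 27.3 and 51.6 CPM in the Cort samples (log2 fold change -0.52, SE 0.63, edgeR adjusted p = 0.990). There it was -1.28 with all 10 samples (exact permutation p = 0.103), with left-out Cort sample C06 at 2.204 CPM, and 0.0023 without vehicle sample C03. An opposite-strand gene overlaps 24.9% of the exon bases of Slc32a1, so its counts are uncertain unless strand was used. Slc6a11, which takes up GABA mainly into astrocytes, was at 962, 921 and 957 CPM in the 2 day vehicle samples and at 659, 603, 961 and 786 CPM in the Cort samples. Cort sample C06 was as high as the vehicle samples and the other 3 were below them. Over the 7 samples its log2 fold change was -0.32 (SE 0.13, edgeR adjusted p = 0.771), past P below 0.05 but not 0.01. With all 10, where left-out vehicle samples C07 and C09 stood at 1270.0 and 1009 CPM and Cort C08 at 725 CPM, it was -0.44 (edgeR adjusted p = 0.836), past P below 0.01. The exact 2-sided permutation p over the 10 was 0.0238. At 4 weeks its value was -0.11 (SE 0.28). Slc6a13, a GABA transporter known from the meninges and liver, was at or under 0.862 CPM in the 7 samples at 2 days.

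The postsynaptic and chloride genes did not pass P below 0.05 in either dataset over the 7 samples. Gphn, the scaffold under glycine and many GABA-A receptors, was at 51.1 to 74.8 CPM in the 4 week vehicle samples and at 87.5 to 101 CPM in the Cort samples, which did not overlap (log2 fold change 0.60, SE 0.44). Nlgn2, the adhesion protein of inhibitory synapses, went the other way, at 170.1 to 205 CPM and 98.2 to 159.8 CPM, also without overlap (log2 fold change -0.58, SE 0.33). Over all 10 samples the groups overlapped for both genes, with Gphn at 0.17 and Nlgn2 at 0.01. Slc12a5, which pumps chloride out of neurons, had log2 fold changes of -0.30 (SE 0.16) at 2 days and 0.75 (SE 0.37) at 4 weeks, where it was 0.84 and past P below 0.05, but not 0.01, with all 10 samples. Its difference of effects was 1.05 (SE 0.42, edgeR adjusted p = 0.714), and 1.00 with all 20 samples. Slc12a2, which brings chloride into cells, had -0.18 (SE 0.31) at 2 days and 0.95 (SE 0.63) at 4 weeks, the latter with Cort sample C07 at 236 CPM and the other 3 between 26.1 and 72.7, and at 0.24 with all 10 samples.

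Set beside the other classes, the GABA-A subunits had a like median at 2 days and another at 4 weeks. At 2 days 8 of 10 subunits and 12 of 15 other members had fitted values below 0, with median log2 fold changes of -0.28 and -0.26. Of the 10 subunits 3 passed P below 0.01, as did 1 of the 15. Over all 10 samples the medians were -0.22 and -0.22, and 7 of 10 and 12 of 15 were below 0. At 4 weeks 4 of 10 subunits and 8 of 15 others were below 0, and the medians were 0.25 and -0.10. The second of these turned to 0.06 with all 10 samples and ran from -0.27 without Cort sample C09 to 0.11 without Cort sample C07, while that of the subunits was 0.13 with all 10. The summed level of the 16 genes outside the GABA-A receptor at 2 days was 4819 to 5366 CPM in the vehicle samples and 4046 to 4382 CPM in the Cort samples. Over the full 10 samples it was 4748 to 5366 CPM and 3789 to 4382 CPM, still apart. Gad2, Slc6a11, Gabbr1 and Abat make up most of that sum. The vehicle value of 4748 CPM was that of left-out sample C07, which was unusually high for 2 of these genes. It stood at 1013 CPM for Abat and 1270 CPM for Slc6a11, against 546 to 655 and 921 to 1009 CPM in the other vehicle samples. For Gad2 it was the lowest of the 10, at 710.4 CPM. At 4 weeks the summed level overlapped, at 3356 to 3792 CPM and 3273 to 4077 CPM. No difference between classes was tested.

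Other genes of the pathway were read from a list of 57: partners that traffic and cluster GABA-A receptors, auxiliary GABA-B subunits, GABA and glycine supply, rho and pi subunits and other chloride transporters. At 2 days 49 were tested, 27 with fitted values below 0 (47.9% of all genes), with a median log2 fold change of -0.01. No gene of the list was lower at P below 0.01 in edgeR and 2 were higher, where 1.49% of all genes passed in either direction. Glul, glutamine synthetase of astrocytes, which supplies the glutamine from which neurons make glutamate and GABA, was at 1124 ± 92.5 CPM (SD, n = 3) in vehicle and 1623 ± 83.6 CPM (n = 4) in Cort samples, with a log2 fold change of 0.54 (SE 0.10, edgeR adjusted p = 0.0420). Its value was 0.52 over all 10 samples, with an adjusted p of 0.744. Trak2, a motor adaptor that binds GABA-A receptor subunits, was at 92.2 ± 9.25 CPM and 140.1 ± 12.4 CPM (log2 fold change 0.61, SE 0.19, edgeR adjusted p = 0.529), and at 0.26 with all 10 samples. All 4 rho and pi subunits were too low to test. At 4 weeks 48 of the 57 were tested, 27 below 0 (48.1% of all genes), with a median of -0.10 and none under P of 0.01 in edgeR (1.03% of all genes). Glul was then at 0.46 (SE 0.19, edgeR adjusted p = 0.990).

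Because each sample is a whole nucleus, fewer cells of a type and less RNA per cell cannot be told apart. At 2 days the 12 neuronal markers summed to 7420 to 7842 CPM in the vehicle samples and 7241 to 8244 CPM in the Cort samples, with 6 higher and 6 lower. The peptide genes of arcuate neurons were higher in 8 of 9 tested, with sums of 1865 to 2411 CPM in vehicle and 2524 to 3346 CPM in Cort samples, and 3 of them, Agrp, Pomc and Npy, passed P below 0.01. The glutamatergic markers summed to 167 to 228.5 CPM in vehicle and 125 to 149.7 CPM in Cort samples. Of the 2 tested, Slc17a6 was at -0.62 (SE 0.17) and Slc17a7 at 3.36 (SE 0.95), both past P below 0.01 with an edgeR adjusted p of 0.446. Oligodendrocyte markers were higher in 7 of 9, with sums of 222 to 286 CPM and 370.1 to 447 CPM, and 1 of them, Mobp, passed P below 0.01. Of all genes tested at 2 days, 1.49% passed that threshold. Over all 10 samples each of these sums overlapped, at 1865 to 3418 and 2524 to 3966 CPM for the peptide genes, 46.6 to 228.5 and 81.7 to 149.7 CPM for the glutamatergic markers and 222 to 577 and 370.1 to 602 CPM for the oligodendrocyte markers. At 4 weeks the peptide genes were lower in 7 of 9 tested, with overlapping sums of 1832 to 2511 CPM in vehicle and 1225 to 2146 CPM in Cort samples. Npy was lower (log2 fold change -2.31, SE 0.41, edgeR adjusted p = 0.0966) and Tac2 higher (1.98, SE 0.65, edgeR adjusted p = 0.918). Both passed P below 0.01, where 1.03% of all genes did. At 4 weeks astrocyte markers summed to 1576 to 1796 CPM in vehicle and 1929 to 2412 CPM in Cort samples. Of the 10, 7 were higher. Over all 10 samples the astrocyte sums were still apart, at 1513 to 1796 CPM and 1929 to 2412 CPM. Tanycyte and ependymal markers summed to 248.9 to 495 CPM and 139 to 255 CPM, which overlapped, with all 5 tested lower. Over all 10 samples these sums also overlapped, at 248.9 to 495 CPM and 103.6 to 255 CPM. The defining markers of these lists were above 0 in at least 1 sample of each dataset. The part of these cell types in the differences of the 28 genes was not tested.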

How the data were processed

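RNA from laser-captured arcuate nuclei was amplified and sequenced by the authors, who mapped reads to GRCm38 and counted them per gene with featureCounts; the submitters' processing notes name CASAVA 1.7, featureCounts and DESeq2. The authors deposited raw counts per gene for all 10 samples of each dataset. They also deposited tables of DESeq2-normalised signal with the mean over 7 samples, from which gene symbols were taken, and columns of their own fold changes and p-values, which were not used. The 14 per-sample columns of those tables were not used either. The deposited means were matched within 0.1% in 100% of genes with a mean over 1 by the 7 raw columns of the samples kept. Labels and column names give each column's group but not its replicate number. Whether counting used strand is not given in the sources used here.

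Counts were fitted over all genes with edgeR 4.0.16 (R 4.3.3; filterByExpr, TMM, glmQLFit, glmQLFTest, 2-sided, Benjamini-Hochberg), per dataset, and jointly for the interaction. The authors' thresholds, P below 0.01 and Padj below 0.1, were kept. DESeq2 1.42.0 and limma 3.58.1 served as alternatives, and DESeq2's missing adjusted values stayed missing. CPM were scaled by TMM over the 10 samples of a dataset, so CPM are comparable within a dataset. Exon lengths came from GENCODE M21, and permutation tests used log2(CPM + 1). The fits were tested on simulated counts, where DESeq2 made a larger share of wrong calls than edgeR at 2 days and at 4 weeks. These shares were 28.0% against 13.2% at 2 days and 45.8% against 9.52% at 4 weeks. DESeq2 also recovered more of the differences placed in those counts. It recovered 58.0% against 49.5% for edgeR at 2 days, and 26.0% against 19.0% at 4 weeks. The counts were drawn a single time, with dispersions estimated by edgeR. The changes placed in them were larger than those of Gabra3, Gabre, Gabrq and Gabbr1 at 2 days. These shares therefore do not measure how far the DESeq2 or edgeR calls of these genes can be trusted. Every one of the 28 genes is named; full values are given for those with P below 0.01, an interaction P below 0.01 or no overlap over 10 samples, for Gabra3, Gabre and Gabrq, whose primers the study designed, and for Gad1, Gad2 and Slc32a1. Members and lists were chosen with earlier results of these data known. Samples are separate mice per the study; floors and counts cover counting error only.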

Additional observations from a re-analysis of the deposited data

Results flagged for a closer look

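Among 106 sets of 5 samples (a gene in one group of one dataset), 16 held a sample whose gap to its nearest neighbour exceeded 0.71 of the range of the set. That limit flags about 5% of sets by chance only for normally distributed values, which CPM need not be. A set with a single sample above 0, as for Gabrd and Slc6a13 in the 4 week Cort samples, is flagged by construction. In 11 of these 16 sets the sample was one the study had left out, and some samples were flagged for several genes. At 2 days vehicle sample C07 was at 1013 CPM for Abat, against 546 to 655 in the other vehicle samples, and at 1270.0 CPM for Slc6a11, against 921 to 1009. Cort sample C08 was at 21.1 CPM for Slc6a13, against 0 to 0.674.

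At 4 weeks vehicle sample C05 stood above the other vehicle samples for Gabra3 (228 CPM), Gabrb1 (452 CPM), Gabrb2 (177 CPM) and Gabre (881 CPM), whose other samples reached 108, 222.5, 42.6 and 385.5 CPM. Vehicle sample C01 was low for Gad2, at 429.6 CPM against 757 to 849, and vehicle sample C04 was high for Gabra2, at 136 CPM against 44.1 to 69.0. Cort sample C06 was high for Gabra5 (476 CPM) and Abat (1156 CPM) and low for Gphn (42.2 CPM). Cort sample C09 was low for Gabrq, at 160.3 CPM against 249 to 278, and the one Cort sample with Slc6a13, at 3.61 CPM. Cort sample C07 was at 236 CPM for Slc12a2, and Cort sample C10 was the one with Gabrd, at 2.46 CPM.

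Gabrb1 differed in its Cort effect between the datasets by 0.90 on the log2 scale (0.896, past P below 0.01, edgeR adjusted p = 0.714), with all 4 Cort samples above the vehicle samples at 4 weeks and overlapping groups at 2 days.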

How the results depend on the processing

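No paired analysis was possible because the columns of the tables do not carry the replicate numbers of the sample titles. At 2 days the 4 members under P of 0.01 became 2 with all 10 samples and 2 with limma voom on all 10, and ran from 1 to 5 when 1 of the 7 samples was left out. RLE scaling, the other filters and DESeq2 left 4, and upper quartile scaling gave 5. Members under Padj of 0.1 were 0 except 2 with DESeq2. At 4 weeks the 1 member became 0 with all 10 samples and 2 with DESeq2, and ran from 0 to 2 when 1 sample was left out. For the interaction 1 became 0 with all 20 samples and 3 with DESeq2, and ran from 1 to 3 when 1 sample was left out. The shares of all genes under P of 0.01 were not counted for limma voom, the other filters and scalings, or the fits without 1 sample. For these settings a change in the count of members cannot be told apart from a change in how many genes were called. The 4 week median of members outside the GABA-A receptor was 0.061 with all 10 samples and ran from -0.27 to 0.11 when 1 sample was left out. With all 10 samples 5 of 25 members changed sign at 2 days (Gabra4, Gabrb1, Gabrb2, Glrb and Abat) and 4 at 4 weeks (Gabra3 to -0.29, Gabra5 to 0.47, Abat to 0.45 and Nlgn2 to 0.01). Of the members given in full, those that changed sign at 4 weeks under other settings were Gabre (from -0.35 to 0.14 when 1 sample was left out), Gad2 (from -0.27 to 0.039 when 1 sample was left out, and 0.038 with limma voom), Gad1 (0.022 with limma voom) and Slc32a1 (from -0.89 to 0.0023 when 1 sample was left out). The causes were not tested. The median of all genes moved by under 0.1 with scaling: 0.02, 0.02 and 0.0034 at 2 days for TMM, RLE and upper quartile.

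Counts of 3 or fewer set the limit for Gabra6, Gabrd, Slc6a13 and, in some samples, Glra1. With 3 against 4 samples an exact permutation test cannot go below p = 0.0571.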

Other observations

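Among the 3 vehicle samples of the fit, the 25 tested members varied with a median coefficient of variation of 12.8% at 2 days and 20.7% at 4 weeks, against 25.3% and 50.3% over all genes tested. Among genes with a vehicle mean of at least 100 CPM the medians were 11.6% for 17 members and 11.7% for 2387 genes at 2 days, and 12.8% for 16 members and 24.3% for 2242 genes at 4 weeks.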
